A study of Mus musculus with 16 samples.

Results

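Expression of 9 genes known as effectors of the tumour suppressor p53 (Btg2, Phlda3, Ptpn14, Perp, Apaf1, Ercc5, Zfp365, Sesn1 and Ephx1) was measured in the ventricles of mouse embryos. The genes were picked by symbol from 5921 gene rows of the expression table, and each symbol matched 1 row. They were proposed with earlier results of these data known, chiefly the contrast of the exon 2-3 line, so their values in that contrast are described below without a test. RNA was sequenced from ventricular heart at E11.5, in 4 libraries, called biological replicates, for each of 4 groups. The study asked what the transcription factor ATF4 does in heart development, using cardiomyocyte-specific conditional knockouts (cKO) made with the Xmlc2-Cre transgene. In the exon 2-3 line, exons 2 and 3 of Atf4 were flanked by loxP sites, and in the exon 2 line exon 2 alone was. Each line had its own control group. Batch 1 holds only libraries of the exon 2-3 line and batch 2 only those of the exon 2 line, so a difference between lines and one between batches cannot be told apart. The genotype label is C57BL/6 WT on every sample, the cKO samples included, and whether the controls carried a floxed allele or the transgene is not stated. The Cre is directed to cardiomyocytes while the tissue is whole ventricle, so cells outside its reach contributed RNA to each library.

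p53 is a transcription factor that is held low by the ubiquitin ligase Mdm2 and accumulates when DNA is damaged, when ribosomes are built poorly, or under other stress. It then switches on genes that stop the cell cycle, kill the cell, repair DNA or adjust metabolism, and some of its targets, Mdm2 among them, feed back to restrain it. In the embryo an excess of p53 activity is known to disturb development, the heart included.

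Values are TPM, a measure of relative abundance that is scaled to a fixed total per library and corrects for gene length, so levels of different genes can be compared within a library. The rows held, on chromosomes 1, 10 and part of 11, summed to between 15.2% and 17.1% of a library's TPM, and within a group the libraries correlated with Pearson's r between 0.982 and 0.992 across the 2620 genes tested. Atf4 itself was not analysed here, so every direction rests on the labels. Cardiomyocyte markers were abundant in every library, with a summed TPM of at least 12877 over the 8 markers held. Of the neuron markers, checked because one protocol text names cultured cortical neurons, Map2 and Syt1 reached at most 1.66 and 0.523 TPM, and Dlg4, which is not restricted to neurons, 17.8 TPM. Hemoglobin and other erythroid RNA varied widely among the exon 2-3 cKO libraries, from a summed 1512 TPM in replicate 3 to 11293 TPM in replicate 4. In bulk tissue, fewer cells of a type and less RNA per cell cannot be told apart.

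p53 binds DNA as a tetramer, each pair of subunits recognising a decamer that consists of purines, C, A or T, A or T, G and pyrimidines. The RefSeq promoter table (GRCm38.p6), with windows from 250 bases before to 50 after a start site, held 9 windows for 8 of the 9 genes. Perp had no entry. The decamer, which reads the same on both strands, was found in 1 of the 9 windows, that of the second start site of Sesn1, and in 8.36% of all 32851 windows. A looser form that leaves the middle pair of bases free, and so includes the strict form, was found in 5 of the 9 windows and in 32.5% of all windows. The stretches that hold these matches before the start sites of Sesn1, Btg2, Ephx1 and Zfp365 are printed 5′ to 3′ on the gene's strand, with the match in capitals, because they are the letters nearest to a p53 motif in these promoters. The Sesn1 line holds the strict decamer and the others the looser form.
Sesn1, plus strand, chr10:41887246-41887295: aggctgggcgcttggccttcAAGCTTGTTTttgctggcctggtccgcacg
Btg2, minus strand, chr1:134079187-134079236: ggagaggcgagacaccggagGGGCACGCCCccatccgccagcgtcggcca
Ephx1, minus strand, chr1:181017701-181017750: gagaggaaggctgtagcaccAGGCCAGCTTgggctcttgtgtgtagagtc
Zfp365, minus strand, chr10:67912874-67912912: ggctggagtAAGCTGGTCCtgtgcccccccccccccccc
The match in Apaf1 lies after its start site, and Sesn1 has 2 further looser matches in the same window. The windows of Phlda3, Ptpn14, Ercc5 and the first start site of Sesn1 held neither form. These are matches of letters within 300 bases and were not compared with binding data.

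In the exon 2-3 line, 7 of the 9 genes had every cKO library above every control library, beside 9.24% of all genes tested. This contrast proposed the genes, so nothing is read from the count. They were the 3 genes grouped here under arrest and growth restraint (Btg2, Phlda3, Ptpn14), both death genes (Perp, Apaf1) and both repair genes (Ercc5, Zfp365). The 2 metabolic genes overlapped between groups, with Ephx1 higher on average and Sesn1 slightly lower in the cKO. The median difference over the 9 genes was 0.68 on the log2(TPM + 1) scale, against 0.032 over all genes tested. None of the 9 passed the test in the exon 2 line, where the median was -0.018. The plot of TPM by library shows both patterns.

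**Figure D1:**
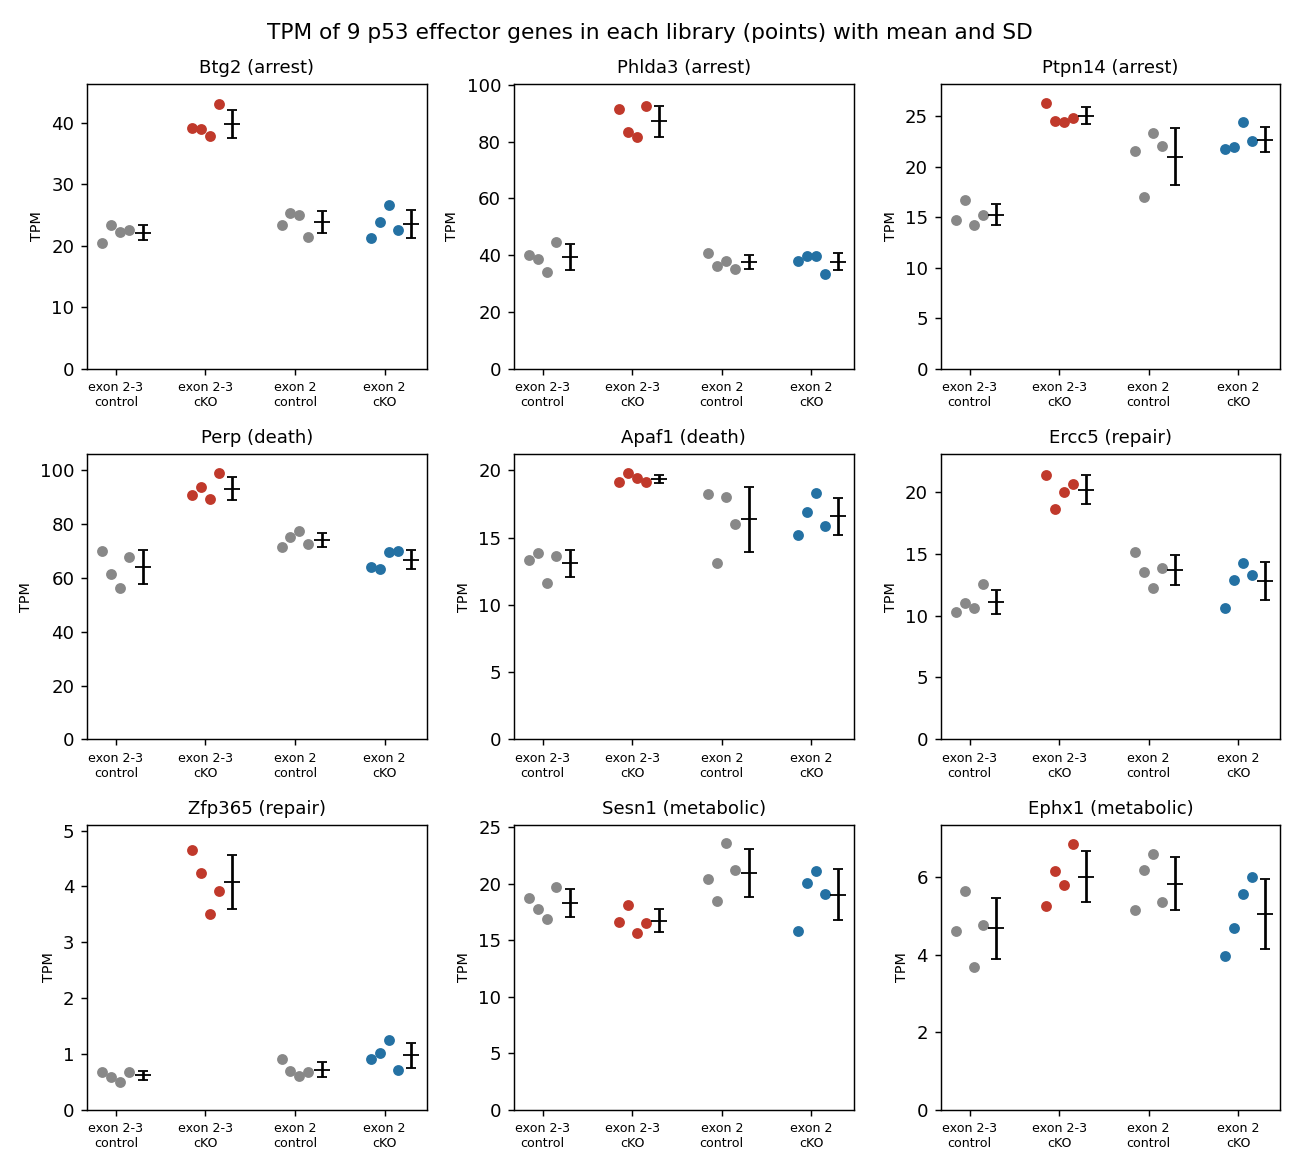
TPM (vertical axes, linear from 0) of the 9 genes in each of 16 libraries (points, replicates 1 to 4 from left to right) in 4 groups, with the mean and SD of each group in black. Phlda3 lies between 81.5 and 92.4 TPM in the exon 2-3 cKO and between 33.5 and 44.8 TPM in the other groups, while Sesn1 overlaps between cKO and control in both lines.

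Among the arrest genes, Phlda3 (chromosome 1, 135766085 to 135769134, plus strand) encodes a pleckstrin homology domain protein that competes with the survival kinase Akt for membrane lipids. Its level was 40.0, 38.7, 34.0 and 44.8 TPM in the exon 2-3 controls and 91.3, 83.2, 81.5 and 92.4 TPM in the cKO, a ratio of means of 2.21 (log2 difference 1.13, SE 0.083). The lowest cKO library was well above the highest control. The exon 2 line had 40.8, 36.1, 37.8 and 35.1 TPM in controls and 38.1, 39.8, 39.6 and 33.5 TPM in the cKO, and the groups overlapped.

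Btg2 (chromosome 1, 134074865 to 134079155, minus strand) encodes an antiproliferative protein that recruits an mRNA deadenylase. The exon 2-3 controls had 20.4, 23.4, 22.2 and 22.5 TPM and the cKO 39.2, 39.0, 37.8 and 43.0 TPM (ratio 1.80, log2 difference 0.82, SE 0.063). The cKO libraries were all higher, and their spread relative to the mean (coefficient of variation 5.71%) was close to that of the controls (5.59%). The 4 exon 2 controls lay between 21.5 and 25.4 TPM and the 4 exon 2 cKO libraries between 21.3 and 26.6 TPM, so the ranges nearly coincided.

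Ptpn14 (chromosome 1, 189728216 to 189876695, plus strand) encodes a tyrosine phosphatase that restrains the growth co-activator YAP. It was at 14.8, 16.7, 14.3 and 15.3 TPM in the exon 2-3 controls and 26.3, 24.5, 24.5 and 24.9 TPM in the cKO (ratio 1.64, log2 difference 0.68, SE 0.064). Its controls differed between the lines, with 21.6, 17.01, 23.4 and 22.1 TPM in the exon 2 controls, where replicate 2 was the low one. The exon 2 cKO libraries, at 21.8, 22.0, 24.4 and 22.6 TPM, overlapped those controls. Ptpn14 overlaps 3 other rows, Gm30280 on its own strand and Gm51739 and Gm26574 on the other, each with a mean under 0.65 TPM.

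Of the death genes, Perp (chromosome 10, 18845071 to 18857073, plus strand) encodes a tetraspan membrane protein that acts in p53-dependent apoptosis and in desmosomes. It had the highest mean TPM of the 9 genes in each group. The exon 2-3 controls had 70.2, 61.5, 56.2 and 68.0 TPM and the cKO 90.8, 93.9, 89.3 and 98.9 TPM (ratio 1.46, log2 difference 0.54, SE 0.073). The order was the opposite in the exon 2 line, with 71.5, 75.3, 77.5 and 72.7 TPM in controls and 64.0, 63.5, 69.8 and 69.9 TPM in the cKO. All 4 exon 2 cKO libraries were thus below all 4 controls, by less than 2 TPM at the nearest.

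Apaf1 (chromosome 10, 90989311 to 91082743, minus strand) encodes the scaffold of the apoptosome, which activates an initiator caspase. It was at 13.3, 13.8, 11.6 and 13.6 TPM in the exon 2-3 controls and 19.1, 19.8, 19.4 and 19.1 TPM in the cKO (ratio 1.48, log2 difference 0.53, SE 0.068). The 4 cKO values were close to each other, with a coefficient of variation of 1.67%. The exon 2 controls ranged from 13.1 to 18.3 TPM and the exon 2 cKO from 15.2 to 18.3 TPM. Apaf1 overlaps Ikbip, itself listed among p53 targets, on the other strand (mean 32.0 TPM), and the sources used here do not say if reads were counted by strand, so its value is uncertain.

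Of the repair genes, Ercc5 (chromosome 1, 44146948 to 44181260, plus strand) encodes the XPG endonuclease of nucleotide excision repair. Its level was 10.3, 11.02, 10.6 and 12.5 TPM in the exon 2-3 controls and 21.4, 18.6, 19.96 and 20.7 TPM in the cKO (ratio 1.81, log2 difference 0.81, SE 0.077). It was, in the exon 2 line, 15.1, 13.5, 12.2 and 13.8 TPM in controls and 10.6, 12.9, 14.3 and 13.3 TPM in the cKO. The exon 2 groups overlapped, and cKO replicate 1 was the lowest of the 8.

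Zfp365 (chromosome 10, 67886105 to 67912662, minus strand), the counterpart of human ZNF365, is a p53 target linked to genome stability. It was nearly silent outside the exon 2-3 cKO. The exon 2-3 controls had 0.684, 0.592, 0.498 and 0.684 TPM and the cKO 4.65, 4.23, 3.51 and 3.92 TPM, the largest ratio of the 9 at 6.64. On the log2(TPM + 1) scale the difference was 1.65 (SE 0.11), and with a pseudocount of 0.1 it was 2.55, since the pseudocount damps genes of low TPM. The exon 2 controls ranged from 0.597 to 0.908 TPM and the exon 2 cKO from 0.718 to 1.26 TPM. Its mean over the 16 libraries was 1.60 TPM and over the 12 libraries outside the exon 2-3 cKO 0.769 TPM, so it passed the minimum mean of 1 TPM only through the group where it was high, whereas the other 8 genes passed without it. Without Zfp365 the median of the exon 2-3 line was 0.61.

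Of the metabolic genes, Sesn1 (chromosome 10, 41810574 to 41908436, plus strand) encodes a sestrin, a stress-inducible protein that restrains the growth kinase mTORC1. It was at 18.7, 17.8, 16.9 and 19.7 TPM in the exon 2-3 controls and 16.7, 18.1, 15.7 and 16.5 TPM in the cKO (ratio 0.915, log2 difference -0.12, SE 0.071). It was the only one of the 9 with a lower mean in the exon 2-3 cKO, and the groups overlapped. The promoter of its second start site, printed above, was the only one of the 9 windows with the strict decamer, beside 8.36% of all windows. A link between the motif and the level was not tested. Values are per gene, so the 2 start sites of Sesn1 cannot be read apart. The exon 2 line gave a difference of like size, from 20.5, 18.5, 23.6 and 21.2 TPM in controls to 15.9, 20.1, 21.1 and 19.1 TPM in the cKO (ratio 0.908).

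Ephx1 (chromosome 1, 180989556 to 181017569, minus strand) encodes microsomal epoxide hydrolase, which detoxifies reactive epoxides. The exon 2-3 controls had 4.61, 5.65, 3.70 and 4.78 TPM and the cKO 5.27, 6.16, 5.80 and 6.86 TPM (ratio 1.29, log2 difference 0.31, SE 0.12). Control replicate 2 lay above cKO replicate 1, and the other 3 controls lay below all 4 cKO libraries. The exon 2 controls had 5.16, 6.20, 6.61 and 5.37 TPM and the cKO 3.98, 4.69, 5.56 and 6.02 TPM, with overlap.

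By role, the exon 2-3 differences lay between 0.68 and 1.13 for the 3 arrest genes, between 0.53 and 0.54 for the 2 death genes, between 0.81 and 1.65 for the 2 repair genes and between -0.12 and 0.31 for the 2 metabolic genes (log2 scale). The roles were assigned here. Phlda3, which competes with the survival kinase Akt, could also be placed under death, so the ranges depend on this assignment. No role was compared with another by a test. Over all genes, 176 (6.72%) were called in this line at an adjusted p under 0.05 in limma, of which 61.9% were higher in the cKO as deposited, 50.8% of 305 after quantile normalisation and 41.4% of 343 after centring on the library median, so the split of calls moved with the scaling. The differences of the 9 genes kept their sign under each scaling.

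**Figure D2:**
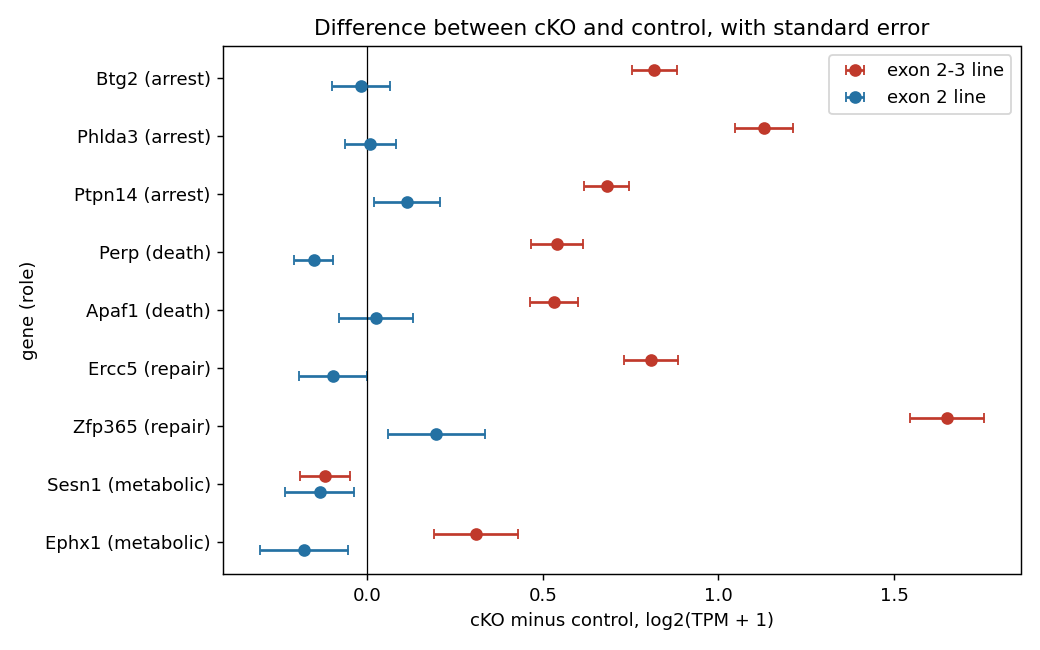
Difference between cKO and control (horizontal axis, log2(TPM + 1); points, with bars of 1 standard error) for the 9 genes with their role, in the exon 2-3 line (red) and the exon 2 line (blue). The red points of 7 genes lie between 0.53 and 1.65, those of Sesn1 and Ephx1 at -0.12 and 0.31, and the blue points between -0.18 and 0.20.

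The exon 2 line was tested, since the genes were proposed chiefly from the other line, though with earlier results of both known. No member was called there (limma, adjusted p 0.999 for each), where 2 of 2620 genes (0.0763%) were called in all and 84 had an unadjusted p under 0.05. The differences ran from -0.18 for Ephx1 to 0.20 for Zfp365, with 4 genes higher and 5 lower. Perp had the smallest unadjusted p of the 9, 0.0193 (difference -0.15, SE 0.055, 95% interval -0.27 to -0.030). It was the only member without overlap in this line, and 1.15% of all genes were without overlap and lower. The 95% intervals are per gene and unadjusted, on the log2(TPM + 1) scale, which understates changes of low genes. For Zfp365 they therefore do not bound the fold change: with a pseudocount of 0.1 its difference was 0.38 (SE 0.27). For Phlda3 the interval ran from -0.15 to 0.17, for Btg2 from -0.20 to 0.16, for Ercc5 from -0.31 to 0.12 and for Apaf1 from -0.21 to 0.26. For Ptpn14 it ran from -0.093 to 0.32, for Zfp365 from -0.11 to 0.50, for Sesn1 from -0.35 to 0.084 and for Ephx1 from -0.46 to 0.097.

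The cKO effects of the 2 lines differed by 1.45 for Zfp365 (SE 0.16), 1.12 for Phlda3 (SE 0.11), 0.90 for Ercc5 (SE 0.13), 0.84 for Btg2 (SE 0.10) and 0.69 for Perp (SE 0.091), each more positive in the exon 2-3 line. For Ptpn14, Apaf1 and Ephx1 the differences were 0.57 (SE 0.12), 0.51 (SE 0.13) and 0.49 (SE 0.18), and for Sesn1 0.014 (SE 0.12). These values include the contrast that proposed the genes and carry no test.

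Levels without a knockout were compared between the 2 control groups. Ptpn14, Perp, Ercc5 and Apaf1 were lower in the exon 2-3 controls, in limma over the 8 control libraries. The adjusted p was 0.00467 for Ptpn14 (difference -0.43, SE 0.10), 0.0321 for Perp (-0.22, SE 0.074), 0.0249 for Ercc5 (-0.28, SE 0.090) and 0.0430 for Apaf1 (-0.29, SE 0.11). These 4 of 9 stand beside 49.7% of all genes called between the control groups and 35.5% called lower, so the members' share was near the background. The other 5 genes did not pass, with adjusted p from 0.0870 for Ephx1 to 0.550 for Zfp365. The median difference was -0.14 over all genes and -0.22 over the 9. After centring on the library median, 57.9% of the genes called were higher in the exon 2-3 controls, against 28.6% as deposited, and Perp, Ercc5 and Apaf1 lost their calls (adjusted p 0.626, 0.361 and 0.266) while Ptpn14 was called under all 9 alternatives and whichever of the 8 libraries was omitted. Phlda3 was called higher after centring (0.25, adjusted p 0.00681) and after quantile normalisation (0.15, adjusted p 0.0390), beside 27% and 20.2% of all genes called higher under those scalings. Without exon 2 control replicate 2 the list of calls lost Perp and gained Sesn1, and without exon 2-3 control replicate 2 it held Ptpn14 and Ephx1 alone. Without exon 2-3 control replicate 3 or exon 2 control replicate 4, Ptpn14 alone was called.

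The order of levels in the exon 2-3 controls was Perp, Phlda3, Btg2, Sesn1, Ptpn14, Apaf1, Ercc5, Ephx1 and Zfp365, with means from 64.0 to 0.614 TPM. Only the neighbours Apaf1 and Ercc5 overlapped between libraries. In the exon 2-3 cKO, Sesn1 stood in the seventh place, below Ptpn14, Ercc5 and Apaf1, and Phlda3 (87.1 ± 5.54 TPM, SD, n = 4) overlapped Perp (93.2 ± 4.25 TPM). In both groups of the exon 2 line the order was Perp, Phlda3, Btg2, Ptpn14, Sesn1, Apaf1, Ercc5, Ephx1 and Zfp365. In the exon 2 controls Btg2, Ptpn14 and Sesn1 overlapped as neighbours, as did Apaf1 and Ercc5.

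Within groups the 9 genes tended to deviate together. Each library's value was expressed as its deviation from the group mean. On that scale 35 of the 36 pairs of genes had a positive Pearson's r over the 16 libraries. Most pairs of any genes were positive too, 2331327 of 3430890 over all genes tested. The median r was 0.32 over the 36 pairs, against 0.17 over all pairs of genes tested. The highest was 0.83 between Ptpn14 and Apaf1, followed by 0.72 between Apaf1 and Sesn1 and 0.70 between Phlda3 and Zfp365. The one negative pair was Zfp365 and Ephx1, at -0.16. All genes of a library share its scaling and composition, so these values describe the libraries and carry no p. Sesn1 and Apaf1 had the highest mean r with the other 8 genes, 0.45 and 0.44. Exon 2-3 control replicate 3 was the lowest of its group for 7 of the 9 genes, exon 2-3 cKO replicate 3 for 6, and exon 2 cKO replicate 1 for 6, while exon 2 cKO replicate 3 was the highest for 6.

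**Figure D3:**
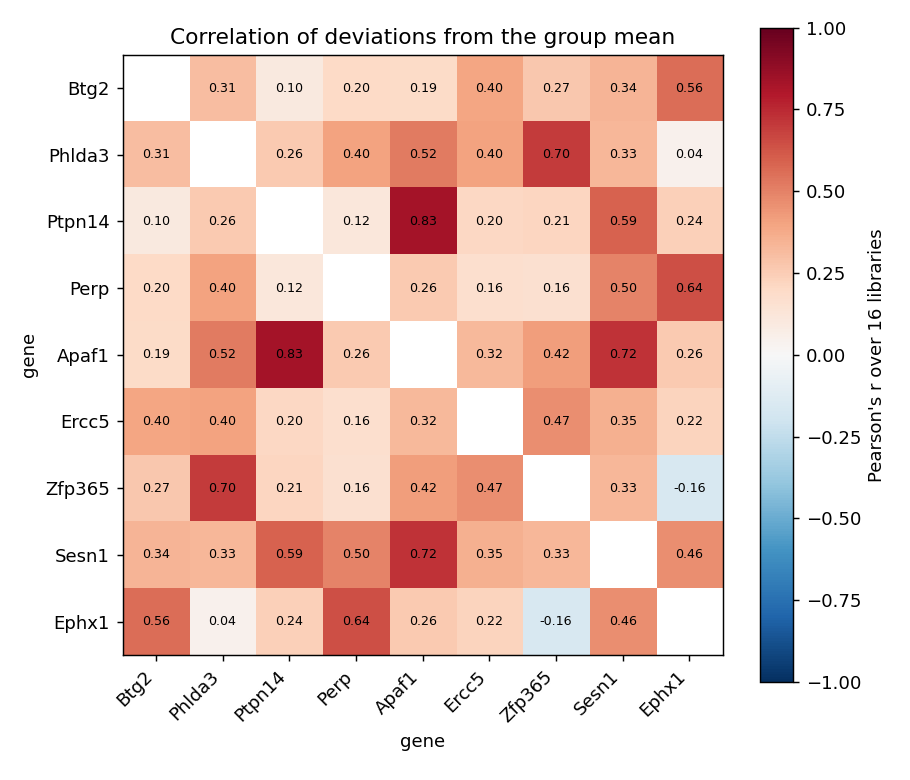
Pearson's r (colour scale and printed values) between each pair of the 9 genes over 16 libraries, computed on deviations of log2(TPM + 1) from the group mean. Of the 36 pairs 35 are positive, from 0.042 for Phlda3 and Ephx1 to 0.83 for Ptpn14 and Apaf1, and Zfp365 with Ephx1 is at -0.16. Over all genes tested, 2331327 of 3430890 pairs are positive.

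The pathway around the 9 genes was read from a list of 102 other p53 regulators and targets, of which 23 were on the rows held and 19 were tested. None of the 19 was called in the exon 2 line, and their median difference was 0.014. In the exon 2-3 line 5 were called higher (Ccng1, Slc19a2, Ddit4, Mdm2 and Ikbip) and 1 lower (Rad51c), beside 4.16% and 2.56% of all genes, and the median was 0.054. Between the control groups 2 of the 19 were called in limma, both lower in the exon 2-3 controls, beside 35.5% of all genes called lower. They were Ccng1 (difference -0.35, adjusted p 0.000456) and E2f7 (-0.55, adjusted p 0.00149). The list was written with earlier results known, so these counts are a description. Trp53, Mdm4 and Ppm1d overlapped between the exon 2-3 groups. Trp53, which encodes p53, lay between 69.9 and 91.6 TPM in the exon 2-3 controls and between 78.6 and 94.4 TPM in the cKO. Mdm4, a partner of Mdm2 that inhibits p53, lay between 26.1 and 28.1 TPM in those controls and between 25.3 and 28.3 TPM in the cKO. The phosphatase gene Ppm1d, another negative regulator, lay between 11.4 and 15.4 TPM and between 13.2 and 15.5 TPM. Mdm2 itself had 38.2, 38.0, 33.2 and 41.5 TPM in the exon 2-3 controls and 49.5, 42.5, 52.3 and 48.4 TPM in the cKO, without overlap (log2 difference 0.35).

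Lif, a cytokine gene on the list that was below the minimum mean and not tested, is named after its values were seen. Its levels were 0.0635, 0.0680, 0.0780 and 0.148 TPM in the exon 2-3 controls and 2.42, 2.36, 1.37 and 1.15 TPM in the cKO. Its highest value in the exon 2 line was 0.266 TPM. The other 3 genes of the list that were below the minimum mean overlapped between the exon 2-3 groups. Prdm1 lay between 0.0630 and 0.122 TPM in those controls and between 0.0665 and 0.137 TPM in the cKO, Dram1 between 0.183 and 0.454 TPM and between 0.287 and 0.704 TPM, and Gls2 between 0.375 and 1.12 TPM and between 0.370 and 0.834 TPM.

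**Figure D4:**
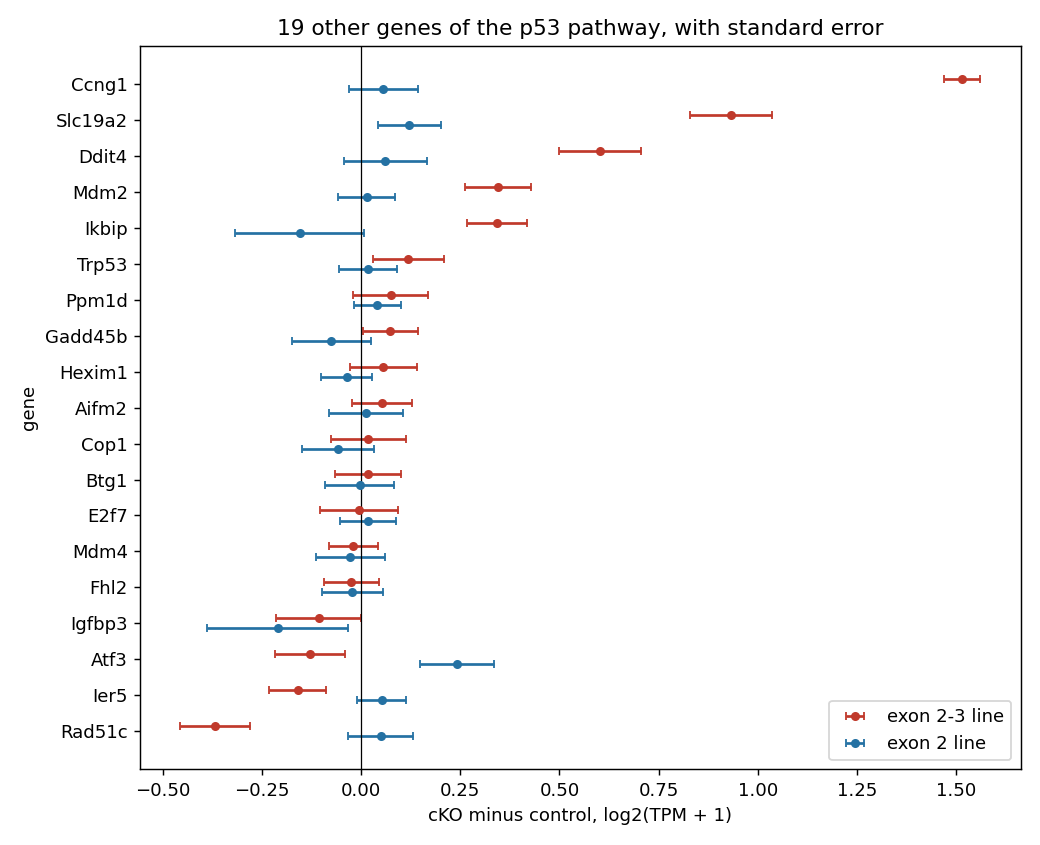
Difference between cKO and control (horizontal axis, log2(TPM + 1); points, with bars of 1 standard error) for 19 other genes of the p53 list, in the exon 2-3 line (red) and the exon 2 line (blue). Ccng1 is the highest red point at 1.52 and Rad51c the lowest at -0.37, and the blue points lie between -0.21 and 0.24.

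The genes most like the 9 were sought by the Pearson's r, over 16 libraries, between a gene's log2(TPM + 1) minus the mean of its own line's controls and the mean of the same over the 9 genes. The 5 highest among the other genes were Serpine2 (r = 0.99), Ccng1 (0.98), Sgsm2 (0.98), Slc19a2 (0.97) and Tcf21 (0.96). This measure includes the contrast that proposed the genes. Serpine2, a secreted serine protease inhibitor, had 104, 113, 90.9 and 123 TPM in the exon 2-3 controls and 202, 187, 189 and 217 TPM in the cKO. Slc19a2, a thiamine transporter that p53 is known to induce, had 7.57, 7.22, 6.06 and 9.11 TPM in those controls and 15.5, 14.3, 14.9 and 15.5 TPM in the cKO. Both were thus higher in the exon 2-3 cKO without overlap, beside 9.24% of all genes tested. In the exon 2 line Serpine2 overlapped, with 122 to 131 TPM in controls and 110 to 129 TPM in the cKO. Slc19a2 was higher without overlap in the exon 2 cKO too, at 7.45 to 8.58 TPM against 6.85 to 7.42 TPM. It was not called there (limma, adjusted p 0.999). Among the members the same r was 0.98 for Phlda3 and Btg2, 0.97 for Zfp365 and Ercc5, 0.95 for Perp, Ptpn14 and Apaf1, 0.76 for Ephx1 and -0.087 for Sesn1. Each member is itself part of the mean, so these values cannot be set against those of the other genes.

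Outside cardiomyocytes, only the epicardial and fibroblast list had markers called in the same contrast. Of the 7 markers of this list held, 5 were called higher in the exon 2-3 cKO, Tcf21 among them, beside 4.16% of all genes. The 7 summed to between 325 and 371 TPM in the controls and between 481 and 528 TPM in the cKO. Between the control groups, 5 of the 7 were called lower in the exon 2-3 controls and 1 higher, beside 35.5% of all genes called lower. The exon 2 line had between 478 and 655 TPM in controls and between 461 and 596 TPM in the cKO. Dpt, a fibroblast marker, was listed at 0 in 1 library. The 8 cardiomyocyte markers summed to between 17288 and 18807 TPM in the exon 2-3 controls and between 16808 and 17799 TPM in the cKO, with 1 called lower. The 4 endothelial markers held summed to between 118 and 148 TPM and between 136 and 157 TPM, and the 5 myeloid ones to between 86.5 and 88.5 TPM and between 75.1 and 87.7 TPM, none of them called in that line. The part of these shifts in the members' differences was not tested. The erythroid list overlapped between the groups, at 2995 to 4554 TPM and 1512 to 11293 TPM. Its part in the members' differences was not tested. The 8 cardiomyocyte markers summed to between 12877 and 14944 TPM in the exon 2 controls, below the exon 2-3 controls. Of these 8, 3 were called higher in the exon 2-3 controls. Over all genes 49.7% were called between the control groups, and 28.6% of those calls were higher in the exon 2-3 controls. The part of this in the members' control differences was not tested.

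**Figure D5:**
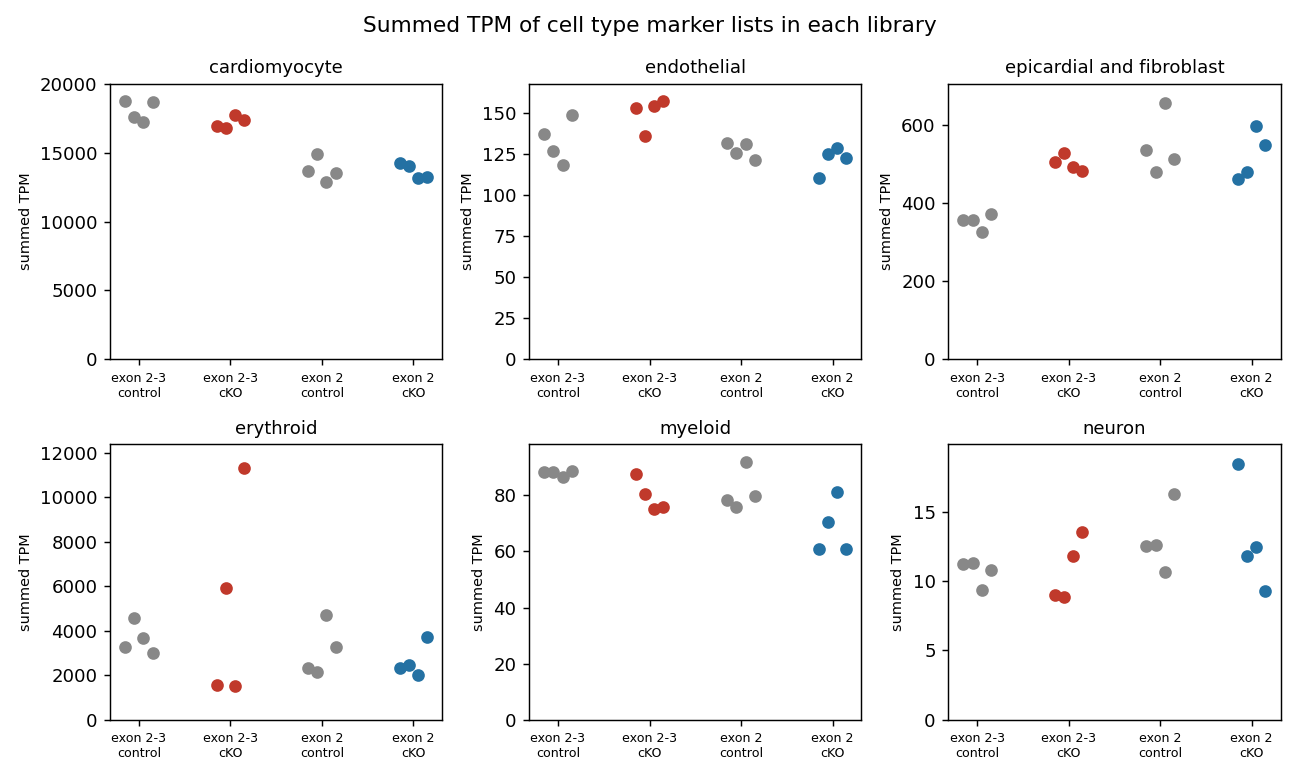
Summed TPM (vertical axes, linear from 0) of 6 marker lists in each library (points, replicates 1 to 4 from left to right) by group. The epicardial and fibroblast sum lies between 325 and 371 TPM in the exon 2-3 controls and between 481 and 528 TPM in the exon 2-3 cKO, without overlap, while the erythroid sum overlaps.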

How the data were processed

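The authors deposited 1 table of TPM per gene, with 1 column per library. Per the submitters' processing notes, FastQC, Trim Galore 0.6.7, HISAT2 2.2.1, StringTie 2.2.1, featureCounts, DESeq2 and the build GRCm38 were used, with no role given for each. Per the labels, libraries had between 30000000 and 70000000 paired-end reads, and one text names stranded mRNA libraries and another depletion of ribosomal RNA. TPM keeps no depth, so no counting interval is given. The table was held in part (chromosomes 1, 10 and part of 11), 1 incomplete line was left out, and 5919 of 5921 rows matched RefSeq coordinates on GRCm38.p6. Analyses used log2(TPM + 1), a scale on which changes of low genes are understated, and 2620 genes with a mean of at least 1 TPM. limma 3.58.1 was run on the 8 libraries of each contrast separately (intensity trend, two-sided, R 4.3.3), with Benjamini-Hochberg adjustment over all genes tested and a threshold of 0.05. The difference of cKO effects came from 1 model over 16 libraries. The fitting procedure was run on simulated data in which each gene was drawn independently, without deviations shared by a library. The only outcome required was that mean estimates lay near the planted differences. Tables and figures used Python 3.11.15, pandas 2.3.3 and matplotlib 3.10.9. The members and lists were chosen with earlier results of these data known. All members are named. Other p53 genes are named if called or if they are Trp53, Mdm4 or Ppm1d, and the 5 genes most like the members by r. Lif was named after its values were seen, with the other 3 untested genes of the list beside it. Alternatives were other pseudocounts, filters, scalings and fits, and each library left out in turn. Leaving out Zfp365 was added after seeing the data.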

Additional observations from a re-analysis of the deposited data

Results flagged for a closer look

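The mean of Perp in the cKO lay above its controls in the exon 2-3 line and below them in the exon 2 line. Each exon 2-3 cKO library was above each of its controls, beside 9.24% of all genes tested. Each exon 2 cKO library was below each of its controls, beside 1.15% of all genes tested. The difference of the 2 effects was 0.69 on the log2 scale (SE 0.091), with means of 64.0 and 93.2 TPM in the exon 2-3 controls and cKO and of 74.3 and 66.8 TPM in the exon 2 controls and cKO. The difference was not tested, since it includes the contrast that proposed the gene, and the lower level in the exon 2 line did not pass the adjusted threshold. Of 36 sets of 4 libraries (9 genes in 4 groups), 0 had a library set apart from the other three by Dixon's criterion at the 95% level.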

How the results depend on the processing

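The signs of the exon 2-3 differences of members held under each alternative and omission run, and no member was called in the exon 2 line under any. In the exon 2-3 line the median was 0.61 over the 8 members other than Zfp365, the same 8 that a minimum mean of 5 TPM keeps. The median of the 9 there lay between 0.65 and 0.72 with 1 library left out. In the exon 2 line that median ranged from -0.076 to 0.0056 with 1 library left out. There the signs of small differences turned in some of these fits: Apaf1 ranged from -0.069 to 0.080, Btg2 from -0.076 to 0.028 and Phlda3 from -0.021 to 0.064. The exon 2 line had 4 genes called in one fit over all libraries and between 2 and 4 (4 without control replicate 3) with 1 library left out. The exon 2-3 line had 87 without a filter, 305 after quantile normalisation and 343 after median centring. It had 269 after each library was rescaled by the sum of the rows held without the hemoglobin genes Hba-a1, Hba-a2 and Hba-x. With 1 library left out it had between 70 (without cKO replicate 3) and 190. Between controls, Btg2 turned to 0.020 after quantile normalisation and 0.080 after median centring, and Zfp365 to 0.092 after median centring, none called. When single libraries were omitted, the control call was lost in 5 of 8 fits for Perp and Ercc5 and in 7 for Apaf1. Causes were not tested. With replicate number as a block, 2, 149 and 1080 genes were called in the exon 2 line, the exon 2-3 line and between controls. Perp, Ercc5 and Apaf1 then lost their control calls in limma (adjusted p 0.0738, 0.0603 and 0.0797). Between controls, the block joins libraries of different lines and batches by number alone. In the exon 2 line no member was called with the block (limma, adjusted p 0.984 for Perp). Same-numbered libraries did not deviate together throughout (r from 0.064 to 0.20 in the exon 2 line, where each cKO library correlated best with the control of its own number, from -0.029 to 0.21 in the exon 2-3 line and from -0.22 to -0.025 between controls), so the numbers were not taken as pairs. Zfp365 had no value with a minimum mean of 5 TPM. The median SE of a difference was 0.089 over all genes in the exon 2 line, and depth is unknown.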
